A study of Mus musculus with 18 samples.

Results

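The collagen chains are the genes whose symbol has the form Col, a type number, a and a chain number, such as Col1a1, the gene of the alpha 1 chain of type I collagen. Every gene of the expression table with a symbol of this form was taken, whatever its level, which gave 44 genes of 54532. Of these, 35 reached 1 FPKM (fragments per kilobase of a transcript's length, relative to the depth of the library) in at least 1 library and 9 stayed below it in every library. No chain was at 0 in all libraries.

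Polyadenylated RNA was sequenced from cells isolated from mouse liver, in 6 groups of 3 libraries. These were the cells of the bile duct wall, the biliary epithelial cells (BECs), the macrophage-type Kupffer-like cells (Kupffer) and the primary hepatocytes (MPH). Each was taken after bile duct ligation (BDL), an operation that stops the outflow of bile, and after a sham operation (Sham). The labels give no strain, age, sex, genotype or time after ligation, and leave unsaid if libraries are from single or pooled mice, so p-values measure only the spread between these libraries. Hepatic stellate cells, the liver's pericytes, were not analysed here. The recovered depth was 15451630 to 20577887 reads in genes per library.

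Collagens are secreted or membrane-bound proteins in which 3 chains wind into a triple helix. Fibrillar types such as I, III and V form the cables of scar tissue, type IV forms the mesh of basement membranes, type VI forms beaded filaments around cells, and types XV and XVIII sit at the border of basement membranes. In the liver, stellate cells and portal fibroblasts are the known main producers of scar collagen after injury, while bile duct cells, hepatocytes and macrophages are not regarded as such. In bulk libraries a change in the number of cells of a type and a change in the RNA per cell cannot be told apart.

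The label of each preparation was set against markers. Summed over 8 markers each, hepatocyte genes stood at 36550 to 104200 FPKM in the 6 MPH libraries against at most 3412 FPKM elsewhere, and biliary genes at 2602 to 4014 FPKM in BECs against at most 145 FPKM elsewhere. Kupffer cell genes stood at 10180, 6918 and 1935 FPKM in Kupffer BDL 1, 2 and 3 and at 4672 to 5854 FPKM in Kupffer Sham. They also stood at 946 to 5331 FPKM in MPH, so Kupffer-like cells and MPH overlapped. Judged by Ddx3y of the Y chromosome and Xist, each group held both male and female libraries.

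Collagen transcripts made up the largest share of the RNA in BECs. The 44 chains summed to 0.569% ± 0.168 of all FPKM in BECs BDL and 0.337% ± 0.0611 in BECs Sham (mean ± SD, n = 3 per group, as throughout). The sum was 0.0757% ± 0.0380 in MPH BDL and 0.0392% ± 0.00946 in MPH Sham, and 0.0834% ± 0.0123 in Kupffer BDL and 0.0701% ± 0.00863 in Kupffer Sham. In FPKM, BECs BDL summed to 2278, 1289 and 1284, against 742, 1029 and 1216 in BECs Sham, so the groups did not overlap. MPH BDL summed to 546, 484 and 226 FPKM, against 190, 293 and 288 in MPH Sham, and MPH BDL 3 lay inside the Sham range. Kupffer BDL summed to 319, 278 and 267 FPKM, above the 175, 199 and 206 of Kupffer Sham. As a share of all FPKM the Kupffer groups overlapped, since Kupffer BDL 2 (0.0696%) lay within the Kupffer Sham range (0.0604% to 0.0769%).

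Each preparation had its own leading chains. Col18a1, whose chain carries the endostatin fragment, was the highest chain in all 6 MPH libraries, at 135 ± 32.9 FPKM in BDL and 123 ± 61.4 in Sham. Col3a1 and Col1a1, the chains of scar types III and I, led in all 6 BECs libraries. Col4a1, a chain of basement membrane collagen, led in all 3 Kupffer Sham libraries and in Kupffer BDL 1, while Col3a1 led in Kupffer BDL 2 and 3.

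**Figure D1:**
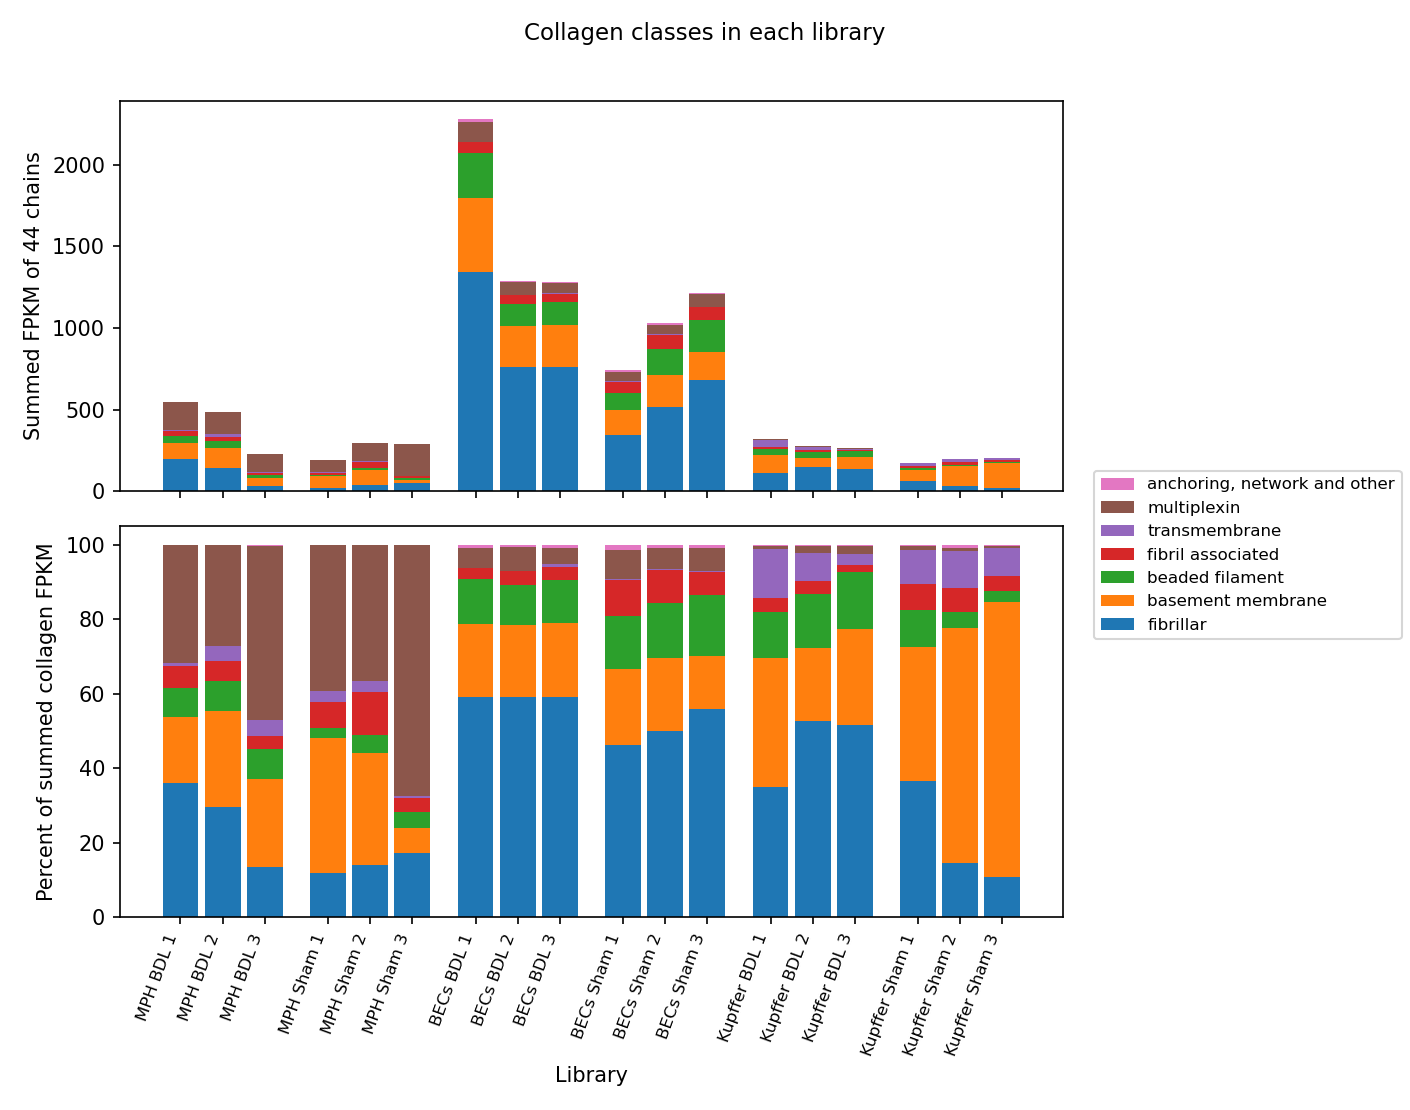
Summed FPKM of the 44 collagen chains by class (upper panel) and the share of each class in that sum (lower panel, percent), 1 bar per library. Multiplexins, which are Col15a1 and Col18a1, took 27.0% to 46.9% of the sum in MPH BDL and 36.5% to 67.4% in MPH Sham, and fibrillar chains took 59.0% to 59.2% in BECs BDL and 46.3% to 56.0% in BECs Sham.

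The share of some classes in the sum lay apart between BDL and Sham. Fibrillar chains took 59.1% ± 0.0862 of the collagen FPKM in BECs BDL and 50.8% ± 4.90 in BECs Sham, with no overlap between libraries. Fibril-associated chains took 2.95% to 3.85% in BECs BDL and 6.21% to 9.62% in BECs Sham, again without overlap. In Kupffer-like cells basement membrane chains took 26.8% ± 7.46 in BDL and 57.7% ± 19.5 in Sham, and fibrillar chains 46.4% ± 9.92 in BDL and 20.6% ± 13.9 in Sham. The fibrillar ranges overlapped, since Kupffer Sham 1 stood at 36.5% and Kupffer BDL 1 at 34.9%. In MPH the multiplexin share was 35.1% ± 10.4 in BDL and 47.7% ± 17.1 in Sham, and the ranges overlapped. The beaded filament share in MPH was 7.99% ± 0.118 in BDL and 3.94% ± 1.08 in Sham, without overlap. It was also higher in Kupffer BDL (12.33% to 15.36%) than in Kupffer Sham (2.998% to 10.02%). In BECs it was lower in BDL (10.56% to 12.05%) than in Sham (14.15% to 16.36%). The hexagonal network share in MPH was 0.0782% to 0.125% in BDL and 0.0189% to 0.0319% in Sham, without overlap. It rests on few reads, such as 2, 4 and 2 of Col8a1 in MPH Sham. The shares of fibril-associated and anchoring chains in Kupffer-like cells and of hexagonal network chains in BECs lay lower in BDL without overlap. That of anchoring chains in BECs lay higher.

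**Figure D2:**
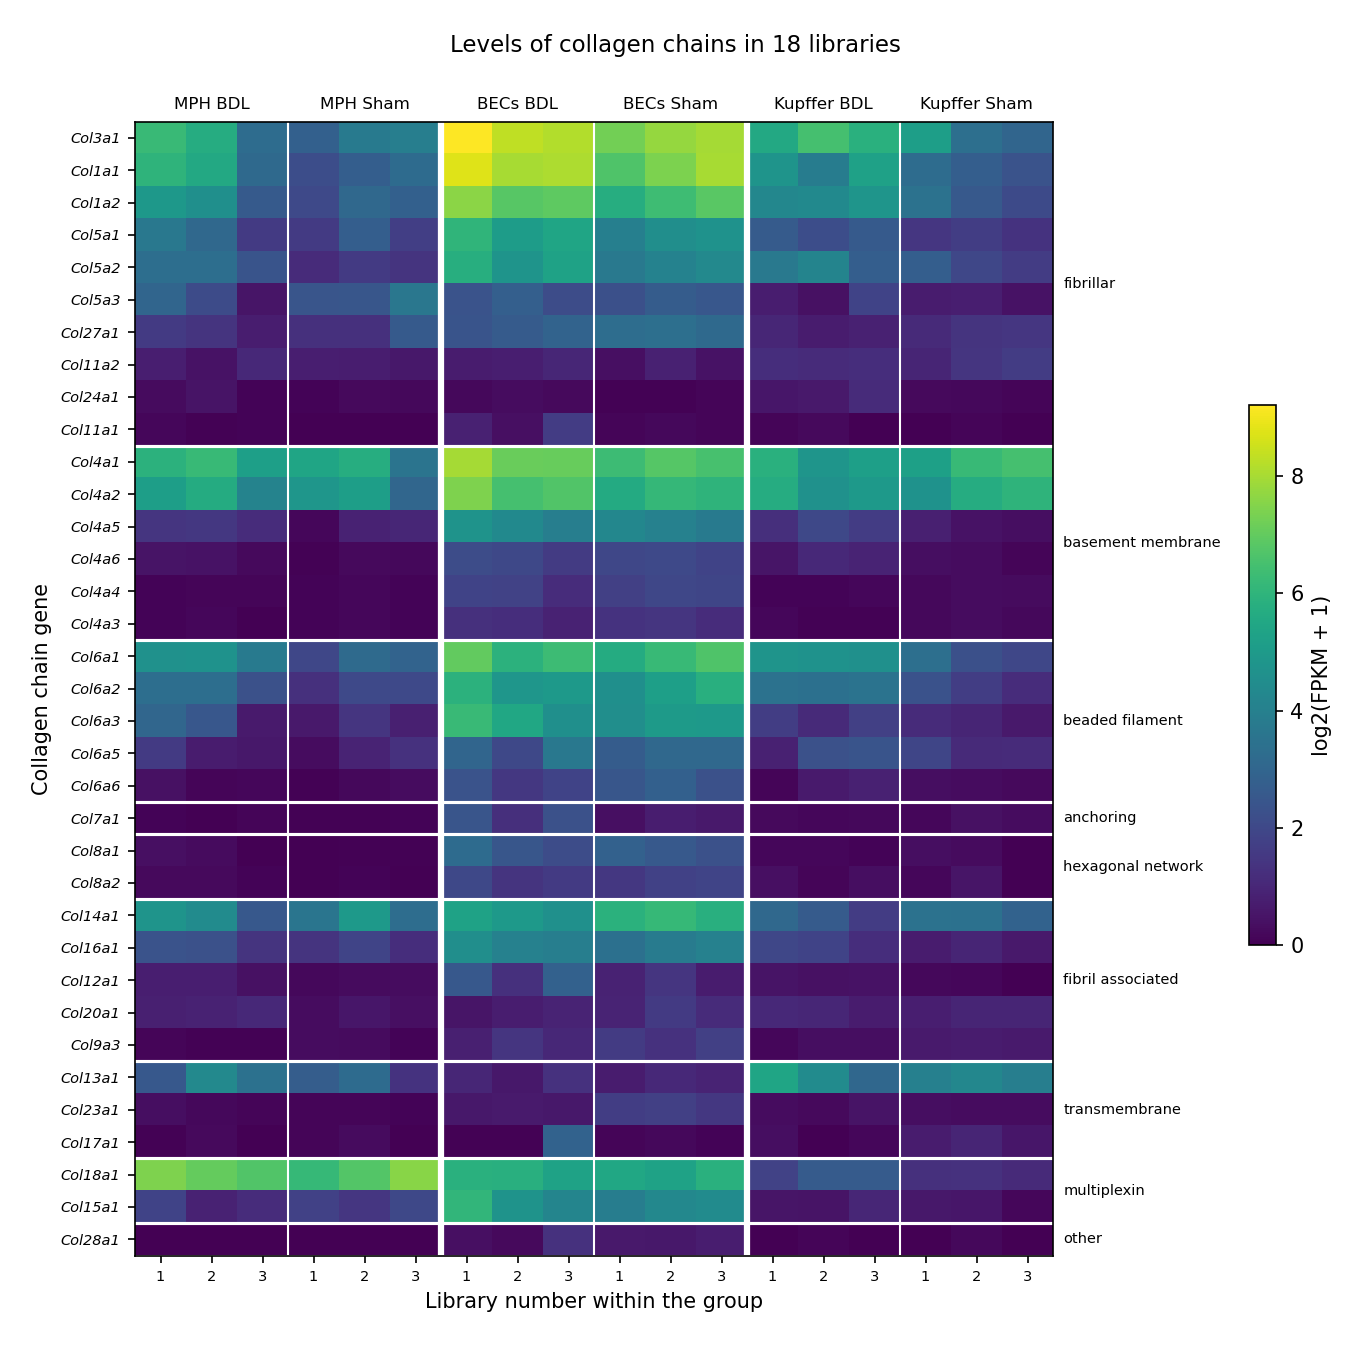
Level of the 35 chains that reached 1 FPKM, as log2(FPKM + 1), in each of 18 libraries (columns, BDL left of Sham in each cell type), grouped by class. BECs carry the brightest rows for most classes, Col18a1 is brightest in MPH and Col13a1 in Kupffer-like cells.

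The preparations were compared with each other within Sham and within BDL, to ask where each chain was highest. Most tested chains were higher in BECs than in either other preparation. With limma on log2(FPKM + 1), a method that fits a linear model to every gene, 24 of 27 tested chains were higher in BECs Sham than in MPH Sham and 2 were lower, while 28.3% and 30% of all genes were called higher and lower at an adjusted p under 0.05. Between BECs Sham and Kupffer Sham 24 of 27 were higher in BECs and 1 lower, where 23.9% and 20% of all genes were called. After ligation 22 of 27 were higher and 2 lower in BECs than in MPH (all genes 23.8% and 22.2%), and 23 were higher and 1 lower in BECs than in Kupffer-like cells (all genes 17.2% and 14%). A chain was tested when at least 3 libraries of the fit reached 1 FPKM. Of the 27 tested in Sham, 9 reached 1 FPKM in BECs alone, so these had to be higher there and all 9 were. Among the other 18, BECs Sham was higher in 15 and lower in 2 against MPH Sham, and higher in 15 and lower in 1 against Kupffer Sham. In BDL 6 of the 27 reached 1 FPKM in BECs alone and all 6 were higher. Among the other 21, BECs BDL was higher in 16 and lower in 2 against MPH BDL, and higher in 17 and lower in 1 against Kupffer BDL.

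The BECs libraries also carried the highest sums of portal fibroblast and smooth muscle markers. Of 9 portal fibroblast markers, the sum was 238 to 463 FPKM in BECs BDL and 299 to 348 in BECs Sham, and at most 53.9 FPKM in the other groups. Of 6 smooth muscle markers it was 77.9 to 279 FPKM in BECs BDL and 247 to 387 in BECs Sham, and at most 14.0 elsewhere. The 12 stellate markers summed to 164 to 350 FPKM in BECs BDL and 192 to 270 in BECs Sham, against 99.1 to 143 in MPH BDL, 48.5 to 191 in MPH Sham, 15.2 to 74.6 in Kupffer BDL and 43.6 to 63.1 in Kupffer Sham, so BECs and MPH overlapped. The stellate list did not move as one, since in BDL 5 of its 11 tested markers were higher and 3 lower in BECs than in MPH, with a median log2 fold change of -0.40. Rgs5, also a pericyte gene, stood at 62.7 to 207 FPKM in BECs BDL and 12.0 to 16.4 in MPH BDL, while Lrat, the retinol-storing enzyme of stellate cells, stood at 0.775 to 1.30 FPKM in BECs BDL and 5.63 to 12.8 in MPH BDL. Their part in the collagen levels was not tested.

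The chains Col13a1 and Col18a1 had another order of levels. Col13a1, a transmembrane collagen, stood at 41.3, 20.7 and 7.39 FPKM in Kupffer BDL and 15.0, 18.4 and 14.5 in Kupffer Sham. In MPH it stood at 4.84, 19.1 and 9.75 FPKM in BDL and 5.55, 8.29 and 1.53 in Sham, and in BECs at 0.524 to 1.49 FPKM in BDL and 0.634 to 1.09 in Sham. Kupffer and MPH overlapped after ligation, and BECs lay below all other libraries. In Sham it was lower in BECs than in Kupffer-like cells (log2 fold change -3.18, SE 0.40, adjusted p = 0.000206) and higher in Kupffer-like cells than in MPH (1.65, SE 0.40, adjusted p = 0.00714). Col18a1 was lower in Kupffer Sham than in MPH Sham (log2 fold change -5.60, SE 0.32, adjusted p = 4.17e-06) and higher in BECs Sham than in Kupffer Sham (4.31, SE 0.32). It was also lower in BECs Sham than in MPH Sham (-1.29, SE 0.32, adjusted p = 0.00705), but that call was lost with libraries scaled to a common sum (-0.14, adjusted p = 0.581) or to recovered reads (-0.54, adjusted p = 0.0800). Between Kupffer-like cells and MPH, 3 chains were called higher in Kupffer Sham (all genes 28.1%), namely Col13a1, Col5a2 and Col9a3 (below 1 FPKM in both), and 4 lower (all genes 28.7%), namely Col18a1, Col15a1, Col16a1 and Col5a3. In BDL 0 were called higher (all genes 11.8%) and Col18a1 alone lower (all genes 16.6%), with 3 of 27 chains at an unadjusted p under 0.05. These comparisons depended on how libraries were scaled. With libraries scaled to a common sum, the median of all genes moved to 0.91 for Kupffer Sham over MPH Sham, to 0.53 for Kupffer BDL over MPH BDL and to 0.83 for BECs Sham over MPH Sham, and the call on Col16a1 was lost (-0.08, adjusted p = 0.760). The lower level of Col13a1 in BECs Sham than in MPH Sham (-1.53, adjusted p = 0.00950) was likewise lost (-0.83, adjusted p = 0.104).

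BDL was then compared with Sham within each preparation, to ask how collagen expression responds to blocked bile flow. In Kupffer-like cells Col6a1, Col6a2 and Col5a1 rose. In BECs Col5a2 and Col7a1 rose while Col14a1 and Col23a1 fell. In MPH no chain passed the test, and the chains with log2 fold changes above 1 there included Col1a1, Col5a2, Col6a1 and Col6a2. Of the 15 chains tested in all 3 preparations, 11 had a positive log2 fold change in each of them. The share of all genes with this pattern was not computed, so the count has no background. Among the 11, Col4a5 and Col16a1 reached 1 FPKM in BDL alone in Kupffer-like cells, as did Col4a5 in MPH. Their sign there was fixed by the filter on level.

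**Figure D3:**
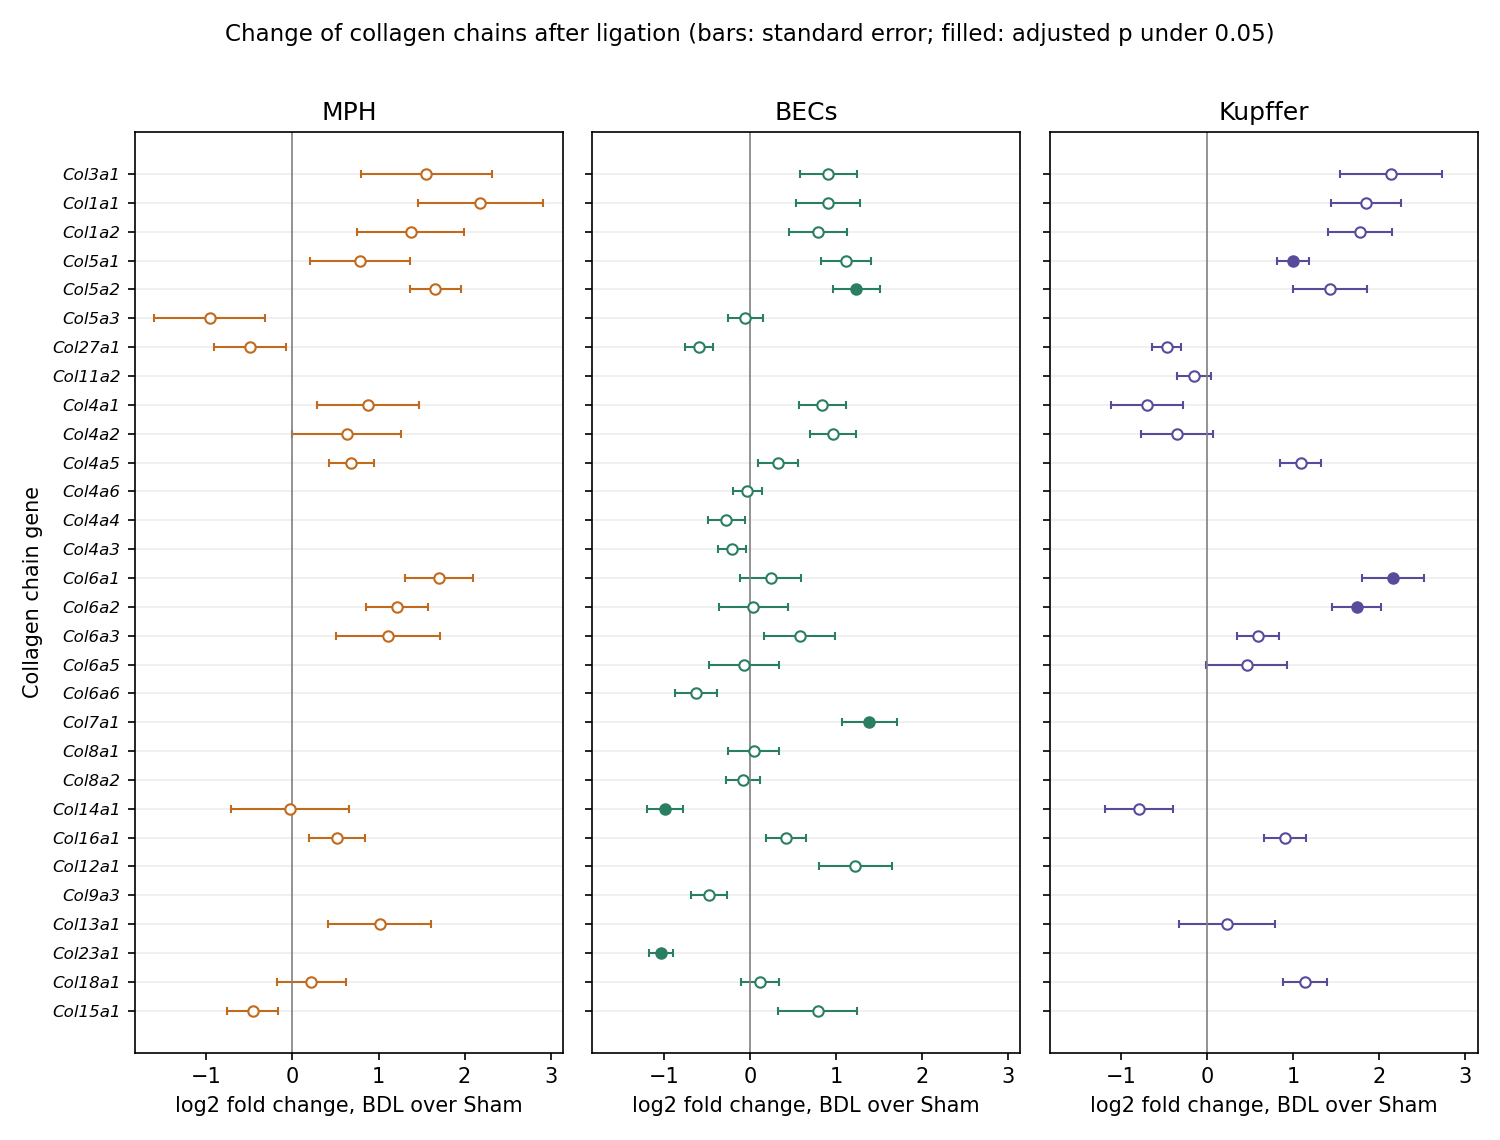
Log2 fold change of BDL over Sham for each tested chain in MPH (18 chains), BECs (28) and Kupffer-like cells (18), with its standard error. Filled points passed an adjusted p under 0.05 and number 0 for MPH, 4 for BECs and 3 for Kupffer-like cells.

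Each count was read against that of all genes tested. In Kupffer-like cells 3 of 18 tested chains rose and 0 fell, while 1.47% of all genes rose and 2.4% fell. In BECs 2 of 28 chains rose and 2 fell, while 2.96% of all genes rose and 4.7% fell. In MPH 0 of 18 were called by limma, 5 had an unadjusted p under 0.05, and 1.57% of all genes were called. Some tested chains reached 1 FPKM in BDL alone or in Sham alone, and so passed the filter through that group only. These were Col7a1 (BDL) and Col23a1 (Sham) in BECs, Col4a5 and Col16a1 (BDL) and Col27a1 (Sham) in Kupffer-like cells, and Col4a5 (BDL) in MPH. Without them 1 of 26 chains rose and 1 fell in BECs, and 3 of 15 rose in Kupffer-like cells. The median log2 fold change of the tested chains was 0.95 in Kupffer-like cells, 0.18 in BECs and 0.83 in MPH, against 0.03, -0.03 and -0.06 over all genes tested. Chains whose 3 BDL libraries all exceeded the 3 Sham libraries numbered 10 of 18 in Kupffer-like cells (16.7% of all genes), 6 of 28 in BECs (13%) and 4 of 18 in MPH (11.8%). Chains whose BDL libraries all lay below Sham numbered 1 in Kupffer-like cells (15.6% of all genes), 3 in BECs (18.8%) and 0 in MPH (18.4%). These counts and the medians include the chains that passed the filter through 1 group only, as the values of all genes do. For such chains the filter itself fixed the lack of overlap. Col27a1, the 1 lower chain in Kupffer-like cells, is among them.

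The counts in all 3 preparations depended on single libraries, as did those of all genes. Without Kupffer BDL 2 or any 1 of the Kupffer Sham libraries no chain passed in Kupffer-like cells, with 9 to 12 at an unadjusted p under 0.05, and 0% of all genes passed either. Without Kupffer BDL 1 the count was 1, Col18a1, with 4.27% of all genes called, and without Kupffer BDL 3 it was 5, with 18.4% of all genes called. In MPH, 2 chains passed without MPH BDL 3, Col1a1 and Col5a2, with 0.283% of all genes called. In BECs 0 chains passed without any 1 of the 3 Sham libraries, with 6 to 10 at an unadjusted p under 0.05 and 0.652% to 4.8% of all genes called. The BECs count was 1 without BDL 1 (1.93% of all genes), 3 without BDL 2 (3.08%) and 2 without BDL 3 (7.84%). MPH BDL 3 was the female library of its group, BECs BDL held 2 female libraries against 1 in BECs Sham, and Kupffer BDL and Kupffer Sham held 2 each. With the sex of the library as a covariate, Col23a1 alone passed in BECs (4.24% of all genes) and 0 chains passed in MPH and Kupffer-like cells, where 4 and 12 had an unadjusted p under 0.05.

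**Figure D4:**
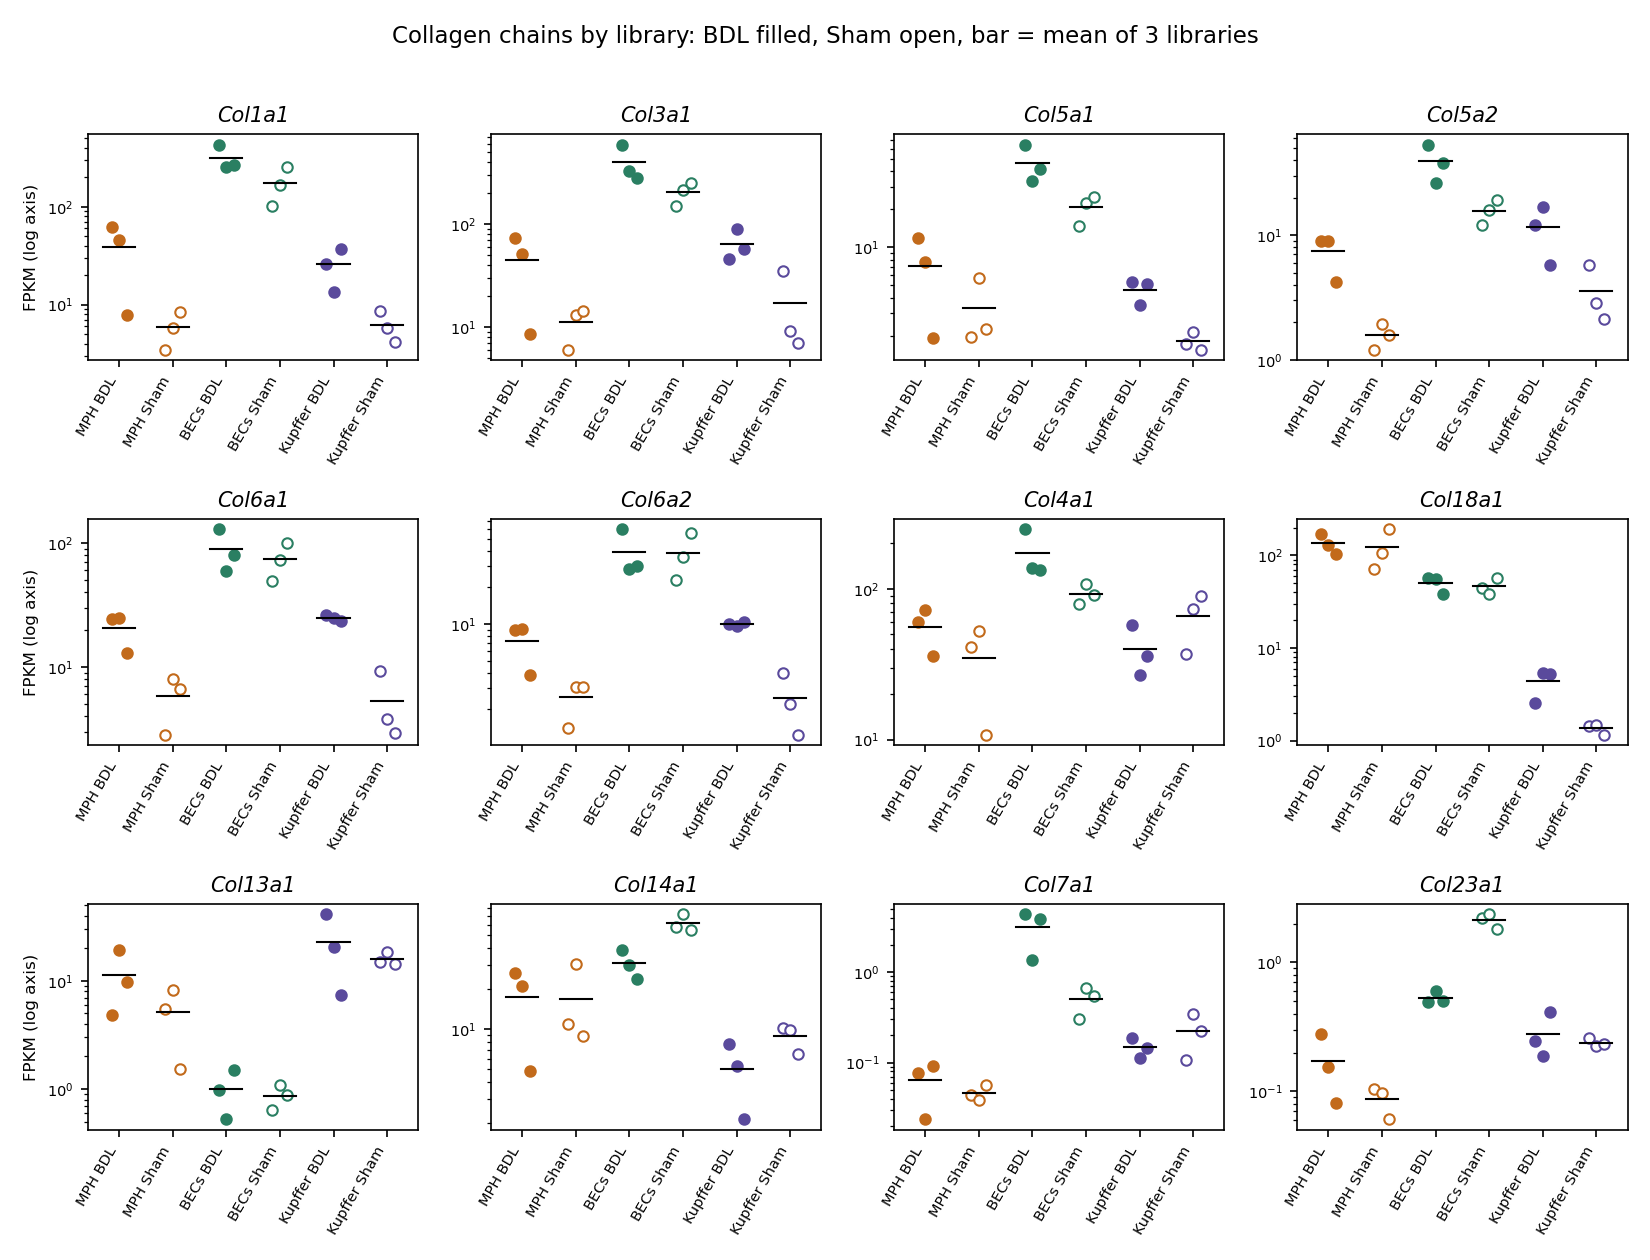
FPKM of 12 chains in each library on log axes, BDL as filled and Sham as open points, with the mean of 3 libraries as a bar. MPH BDL 3 lies below the other MPH BDL libraries for Col1a1 (7.88 against 62.5 and 46.1 FPKM), and the 3 Kupffer BDL libraries lie close together for Col6a1 (23.4 to 26.2 FPKM).

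Fibrillar chains were the most abundant class in BECs. Col1a1 had 26.3, 13.5 and 37.4 FPKM in Kupffer BDL, against 8.60, 5.71 and 4.11 in Kupffer Sham. In MPH it had 62.5, 46.1 and 7.88 FPKM in BDL, against 3.47, 5.77 and 8.32 in Sham. In BECs it had 431, 254 and 266 FPKM in BDL, against 101, 168 and 257 in Sham. The Kupffer groups did not overlap, while MPH BDL 3 and BECs BDL 2 each fell within the Sham range of their preparation. The log2 fold change was 1.84 (SE 0.41, adjusted p = 0.0621) in Kupffer-like cells, 2.19 (SE 0.73, adjusted p = 0.150) in MPH and 0.91 (SE 0.37, adjusted p = 0.184) in BECs. Col1a2, the partner chain of type I, had log2 fold changes of 1.78, 1.37 and 0.80 in Kupffer-like cells, MPH and BECs, with adjusted p of 0.0551, 0.249 and 0.193.

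Col3a1, the single chain of type III collagen, had 45.8, 90.1 and 57.0 FPKM in Kupffer BDL, against 34.9, 9.20 and 7.01 in Kupffer Sham. In BECs it had 592, 325 and 280 FPKM in BDL, against 150, 213 and 252 in Sham, and in MPH 74.0, 51.7 and 8.65 in BDL, against 6.04, 13.0 and 14.2 in Sham. It was higher in every BDL library than in every Sham library of BECs and Kupffer-like cells, and MPH BDL 3 again lay among the Sham libraries. None of these passed the test, with adjusted p of 0.101 in Kupffer-like cells, 0.141 in BECs and 0.280 in MPH.

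Type V collagen, which takes part in starting type I fibrils, held the fibrillar chains that passed. Col5a2 had 53.3, 26.4 and 38.2 FPKM in BECs BDL, against 12.1, 15.9 and 19.0 in BECs Sham. It rose there by a log2 fold change of 1.24 (SE 0.28, adjusted p = 0.0447), and no library of one group reached the other. In MPH it had 9.02, 9.06 and 4.23 FPKM in BDL, against 1.21, 1.93 and 1.58 in Sham, also without overlap, with a log2 fold change of 1.66 (SE 0.30, adjusted p = 0.0518). In Kupffer-like cells it had 12.1, 16.7 and 5.77 FPKM in BDL, against 5.73, 2.85 and 2.14 in Sham, where BDL 3 and Sham 1 lay side by side (1.42, SE 0.43, adjusted p = 0.121). Col5a1 had 5.30, 3.51 and 5.11 FPKM in Kupffer BDL, against 1.72, 2.15 and 1.56 in Kupffer Sham. It rose in Kupffer-like cells by 1.00 on the log2 scale (SE 0.18, adjusted p = 0.0440), a call that was lost with libraries scaled to a common sum or to recovered reads. In BECs Col5a1 stood at 64.7, 33.3 and 41.7 FPKM in BDL, against 14.7, 22.6 and 24.8 in Sham, without overlap and with a log2 fold change of 1.11 (adjusted p = 0.0652).

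The remaining fibrillar chains gave no call. Col5a3 had 6.94, 3.33 and 0.452 FPKM in MPH BDL, against 4.41, 4.47 and 11.4 in MPH Sham, and 3.37 to 5.89 FPKM in BECs BDL against 3.75 to 5.34 in BECs Sham. Col27a1 was the one fibrillar chain with every BDL library under every Sham library in BECs and in Kupffer-like cells, at 4.31, 5.22 and 6.69 FPKM in BECs BDL against 8.71, 9.18 and 7.84 in BECs Sham (log2 fold change -0.59, adjusted p = 0.0732). In Kupffer-like cells its log2 fold change was -0.47 (adjusted p = 0.165). Its Sham libraries alone reached 1 FPKM there, so the filter fixed that order. Col11a1 and Col11a2 each peaked at 2.08 FPKM, and Col2a1, the collagen of cartilage, at 0.0343 FPKM. Col24a1 passed 1 FPKM in Kupffer BDL 3 and had at most 0.555 FPKM in the other libraries. These 4 were singled out after their values were seen.

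Basement membrane chains were shared by all 3 preparations. Col4a1 and Col4a2 form the common type IV trimer, and their genes lie head to head on chromosome 8, with starts 21 bases apart in the GENCODE M21 annotation of GRCm38. They are shown since their promoters share sequence. In RefSeq (GRCm38.p6) the windows are chr8:11312777-11313076 on the minus strand for Col4a1 and chr8:11312555-11312854 on the plus strand for Col4a2, and 78 bases belong to both. Each runs from 250 bases before to 50 bases after the gene's start, 5′ to 3′, and capitals mark the letters GGGCGG (the GC box), CCAAT and TATAA on either strand.
Col4a1: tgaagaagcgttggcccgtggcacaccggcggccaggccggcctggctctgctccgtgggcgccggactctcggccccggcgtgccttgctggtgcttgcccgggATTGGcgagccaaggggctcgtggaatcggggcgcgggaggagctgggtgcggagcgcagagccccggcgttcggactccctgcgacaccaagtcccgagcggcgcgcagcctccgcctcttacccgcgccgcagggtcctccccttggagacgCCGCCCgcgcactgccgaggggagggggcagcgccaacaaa
Col4a2: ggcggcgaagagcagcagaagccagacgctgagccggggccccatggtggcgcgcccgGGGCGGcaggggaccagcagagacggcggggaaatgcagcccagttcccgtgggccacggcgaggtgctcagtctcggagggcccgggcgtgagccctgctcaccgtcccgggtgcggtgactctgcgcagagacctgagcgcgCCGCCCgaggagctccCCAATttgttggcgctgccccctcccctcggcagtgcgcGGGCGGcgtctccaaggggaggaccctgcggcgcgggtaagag

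GGGCGG occurs on either strand in both windows, once for Col4a1 and 3 times for Col4a2, and CCAAT once in each. The Col4a1 match to GGGCGG lies in the shared bases and is the same site as the last Col4a2 match. Among all 32851 RefSeq promoter windows of this length 35.7% hold GGGCGG, 37.4% CCAAT and 24.9% TATAA. Of the 38 windows of the 35 chains matched by symbol, 23 (60.5%) hold GGGCGG, 13 (34.2%) CCAAT and 7 (18.4%) TATAA. Such matches describe the letters of the window and are not evidence of a bound factor. Col12a1, Col14a1, Col1a1, Col22a1, Col26a1, Col2a1, Col4a3, Col5a2 and Col9a3 were not matched.

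Both chains were at their highest in BECs BDL, and neither passed the test of BDL against Sham in any preparation. Col4a1 had 247, 136 and 133 FPKM in BECs BDL, against 78.7, 108 and 90.7 in BECs Sham. In Kupffer-like cells it had 57.2, 26.6 and 35.7 FPKM in BDL, against 36.6, 73.6 and 88.8 in Sham, and in MPH 59.9, 72.3 and 35.7 in BDL, against 41.3, 52.1 and 10.8 in Sham. The BECs groups did not overlap (log2 fold change 0.84, SE 0.27, adjusted p = 0.112), and the Kupffer and MPH groups did (-0.70 and 0.87, adjusted p = 0.356 and 0.420). Col4a2 had 170, 89.8 and 104 FPKM in BECs BDL, against 48.4, 69.3 and 62.2 in BECs Sham, with log2 fold changes of 0.97 in BECs (adjusted p = 0.0764), -0.36 in Kupffer-like cells and 0.63 in MPH.

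Among the other type IV chains Col4a5, a chain of specialised basement membranes, was the most abundant. It had 1.39, 2.98 and 2.10 FPKM in Kupffer BDL, against 0.746, 0.374 and 0.280 in Kupffer Sham, without overlap (log2 fold change 1.09, SE 0.24, adjusted p = 0.0609). In MPH it had 1.66, 1.79 and 1.26 FPKM in BDL, against 0.123, 0.837 and 0.965 in Sham, also without overlap (0.68, adjusted p = 0.186). In both preparations its BDL libraries alone reached 1 FPKM, so the filter fixed this lack of overlap. In BECs, where it stood at 19.9 ± 5.80 FPKM in BDL and 15.4 ± 2.75 in Sham, the ranges overlapped. Col4a3, Col4a4 and Col4a6, which form trimers with Col4a5 in kidney and other tissues, ranged from 0.824 to 3.42 FPKM in BECs and at most 1.10 FPKM elsewhere, Kupffer BDL 2 being the highest of those.

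The beaded filament chains Col6a1 and Col6a2 had the largest called log2(FPKM + 1) differences, a scale that understates the change of low chains such as Col7a1. Col6a1 and Col6a2 encode chains that assemble with another, such as that of Col6a3, into type VI collagen. Their genes follow each other on the same strand of chromosome 10, with 85161 bases between them, and their promoters are shown with that of Col5a1 because these are the 3 chains that rose in Kupffer-like cells. The RefSeq windows (GRCm38.p6) are chr10:76725995-76726294 on the minus strand for Col6a1, chr10:76623581-76623880 on the minus strand for Col6a2 and chr2:27886175-27886474 on the plus strand for Col5a1, marked as above. For Col6a2, which has 2 windows in the table, 1 is shown.
Col6a1: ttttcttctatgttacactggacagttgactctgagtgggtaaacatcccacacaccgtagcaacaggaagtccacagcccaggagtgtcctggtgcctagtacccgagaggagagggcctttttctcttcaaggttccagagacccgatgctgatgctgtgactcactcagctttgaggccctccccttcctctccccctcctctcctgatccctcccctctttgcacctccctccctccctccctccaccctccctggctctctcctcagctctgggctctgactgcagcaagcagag
Col6a2: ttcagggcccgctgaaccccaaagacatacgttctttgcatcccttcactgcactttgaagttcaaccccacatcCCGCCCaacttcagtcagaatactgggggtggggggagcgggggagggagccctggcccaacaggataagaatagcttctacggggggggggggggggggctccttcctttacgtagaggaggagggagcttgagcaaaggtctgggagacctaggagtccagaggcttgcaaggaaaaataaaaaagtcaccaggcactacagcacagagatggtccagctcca
Col5a1: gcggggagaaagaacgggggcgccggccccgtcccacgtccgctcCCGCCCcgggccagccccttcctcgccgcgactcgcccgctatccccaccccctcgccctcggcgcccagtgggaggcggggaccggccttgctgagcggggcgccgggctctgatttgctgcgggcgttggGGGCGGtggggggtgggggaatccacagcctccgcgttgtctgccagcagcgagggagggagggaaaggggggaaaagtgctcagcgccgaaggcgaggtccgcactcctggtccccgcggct

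The Col6a1 window holds none of the 3 motifs, the Col6a2 window holds GGGCGG once on either strand and the Col5a1 window holds it 2 times. The bases are 57.3% G or C in the Col6a1 window, 56.7% in that of Col6a2 and 75.0% in that of Col5a1.

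Col6a1 had 26.2, 24.9 and 23.4 FPKM in Kupffer BDL, against 9.28, 3.78 and 2.92 in Kupffer Sham. Col6a2 had 10.0, 9.61 and 10.3 FPKM in Kupffer BDL, against 3.96, 2.21 and 1.24 in Kupffer Sham. In both genes the BDL libraries lay close together and above the whole Sham range, within which Kupffer Sham 1 was the highest. Col6a1 rose by a log2 fold change of 2.16 (SE 0.36) and Col6a2 by 1.74 (SE 0.29), each with an adjusted p of 0.0410. Both passed with either rescaling of the libraries, in which the median of all genes moved to -0.25 (common sum) and -0.15 (recovered reads).

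In MPH both chains were also higher in every BDL library. Col6a1 had 24.5, 24.8 and 12.9 FPKM in MPH BDL, against 2.85, 8.03 and 6.66 in MPH Sham, and its log2 fold change was 1.70 (SE 0.40, adjusted p = 0.0804). Col6a2 had 8.98, 9.13 and 3.85 FPKM in MPH BDL, against 1.40, 3.06 and 3.04 in MPH Sham (1.21, SE 0.36, adjusted p = 0.125). In BECs, where both were more abundant, the groups overlapped, with 89.0 ± 35.5 FPKM in BDL and 74.3 ± 25.8 in Sham for Col6a1 and 39.1 ± 17.8 and 38.1 ± 16.5 for Col6a2.

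Col6a3 and Col6a5 gave no call between BDL and Sham. Col6a3 had 7.21, 4.60 and 0.569 FPKM in MPH BDL, against 0.534, 1.66 and 0.755 in MPH Sham, and 2.15, 1.12 and 2.33 in Kupffer BDL, against 1.22, 0.921 and 0.529 in Kupffer Sham. In BECs it had 75.3, 43.9 and 22.9 FPKM in BDL, against 22.6, 31.7 and 30.8 in Sham. None of its 3 log2 fold changes (0.59 in Kupffer-like cells, 0.58 in BECs, 1.11 in MPH) passed, and each pair of groups overlapped. Col6a5 averaged 7.33 ± 4.42 FPKM in BECs BDL and 6.95 ± 1.27 in BECs Sham. It had 2.99 ± 1.91 FPKM in Kupffer BDL and 1.71 ± 0.925 in Kupffer Sham.

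Col7a1 makes the anchoring fibrils that tie an epithelium to its stroma. It had 4.34, 1.35 and 3.82 FPKM in BECs BDL, against 0.304, 0.672 and 0.549 in BECs Sham, behind which stood 818, 254 and 808 reads in BDL and 62, 153 and 108 in Sham. Every BDL library was above every Sham library, and it rose by a log2 fold change of 1.39 (SE 0.32, adjusted p = 0.0471). Only its 3 BDL libraries reached 1 FPKM, so it entered the test through the group where it was high. In the MPH and Kupffer libraries it never passed 0.344 FPKM.

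Col14a1 coats fibrils as a fibril-associated collagen. It had 38.8, 30.3 and 23.8 FPKM in BECs BDL, against 58.1, 71.7 and 55.2 in BECs Sham, and fell by 0.99 on the log2 scale (SE 0.21, adjusted p = 0.0383) with no overlap. In Kupffer-like cells it had 7.73, 5.30 and 2.11 FPKM in BDL, against 10.1, 9.85 and 6.45 in Sham (-0.80, adjusted p = 0.278), where BDL 1 exceeded Sham 3. In MPH it ranged from 4.82 to 26.2 FPKM in BDL and from 8.80 to 30.5 in Sham. Col14a1 overlaps antisense transcripts in the annotation, as Col5a1 and Col18a1 overlap genes on the opposite strand. Strandedness is not given in the sources used here, so reads of both strands cannot be told apart. Col5a2 and Col7a1 hold Gm38211 and Mir711 on their own strand.

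Other fibril-associated chains showed no call. Col16a1 had 2.94, 2.62 and 1.30 FPKM in Kupffer BDL, against 0.640, 0.949 and 0.564 in Kupffer Sham, without overlap (log2 fold change 0.90, adjusted p = 0.0913), and 17.3 ± 4.36 FPKM in BECs BDL and 12.7 ± 3.02 in BECs Sham. In Kupffer-like cells its BDL libraries alone reached 1 FPKM, so the filter fixed this lack of overlap. Col12a1, singled out after its values were seen, had 4.75, 1.45 and 6.31 FPKM in BECs BDL, against 0.830, 1.68 and 0.639 in BECs Sham (1.23, SE 0.42, adjusted p = 0.131). Only BECs BDL 2 lay within the Sham range.

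The transmembrane chain Col23a1 fell in BECs. It had 0.495, 0.602 and 0.500 FPKM in BECs BDL, against 2.22, 2.36 and 1.81 in BECs Sham, from 52, 63 and 59 reads in BDL and 253, 300 and 199 in Sham. The groups lay far apart, with a log2 fold change of -1.03 (SE 0.14, adjusted p = 0.0146). Only the 3 Sham libraries reached 1 FPKM, so it entered the test through the group where it was high, and with no filter on level the call was lost (adjusted p = 0.0535). In the MPH and Kupffer libraries Col23a1 never passed 0.410 FPKM. Col13a1 had a log2 fold change of 0.23 in Kupffer-like cells, which turned to -0.09 with libraries scaled to a common sum, and 1.01 in MPH (adjusted p = 0.836 and 0.362).

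The multiplexins and the hexagonal network chains completed the set. Col18a1 had 2.53, 5.33 and 5.23 FPKM in Kupffer BDL, against 1.44, 1.48 and 1.16 in Kupffer Sham, without overlap (log2 fold change 1.14, SE 0.25, adjusted p = 0.0627). Its log2 fold change was 0.22 in MPH and 0.11 in BECs, and the groups overlapped in both. Col15a1 had 65.2, 25.6 and 17.4 FPKM in BECs BDL, against 13.9, 18.7 and 20.5 in BECs Sham (0.79, adjusted p = 0.337), so that BDL 3 lay within the Sham range. In MPH it averaged 1.56 ± 0.942 FPKM in BDL and 2.41 ± 0.620 in Sham. Col8a1, known from vessel walls, averaged 5.42 ± 2.53 FPKM in BECs BDL and 5.01 ± 1.24 in BECs Sham, and at most 0.295 FPKM was seen in any other library.

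The chains below 1 FPKM in all libraries were Col10a1, Col19a1, Col22a1, Col25a1, Col26a1, Col2a1, Col6a4, Col9a1 and Col9a2. The highest value among them was 0.591 FPKM, that of Col9a2, and the most reads behind any of their values were 42, for Col6a4. They did not enter the tests of BDL against Sham.

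The responses of the preparations were compared directly through interaction terms, to ask whether ligation acted differently on a chain in 2 cell types. Col23a1 was the chain that passed. Its response in BECs was lower than in MPH by 1.13 on the log2 scale (-1.13, SE 0.19, adjusted p = 0.0208) and lower than in Kupffer-like cells (-1.07, SE 0.19, adjusted p = 0.0215). These calls rest on a low level and on the scale, since Col23a1 entered the fits through BECs Sham alone and a chain at or under 0.410 FPKM, as in MPH and Kupffer-like cells, cannot fall that far on log2(FPKM + 1). With pseudocounts of 0.1 and 0.01 the differences from MPH were -2.29 and -2.75 and did not pass (adjusted p = 0.0779 and 0.137), nor did those from Kupffer-like cells (-1.94 and -2.13, adjusted p = 0.0529 and 0.0783). That made 1 of 30 tested chains for BECs minus MPH, where 1.6% of all genes were called, and 1 of 31 for BECs minus Kupffer, where 3.5% were called. For Kupffer minus MPH limma called 0 of 20 chains, 0 had an unadjusted p under 0.05, and 0.404% of all genes were called. Col7a1 had the next smallest p for BECs minus Kupffer, with a difference of 1.48 (SE 0.38, adjusted p = 0.0563). It entered this fit through BECs BDL alone, the group that makes the difference positive. In Kupffer-like cells it stood at or under 0.344 FPKM. Col6a1 responded less in BECs than in Kupffer-like cells by an estimate of -1.92 (SE 0.55, adjusted p = 0.0759), which did not pass.

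Chains that assemble with each other were set against each other as ratios of FPKM, a value per length. Col4a1 over Col4a2 was 1.13 ± 0.0413 in Kupffer BDL and 1.44 ± 0.0181 in Kupffer Sham, with ranges of 1.10 to 1.18 and 1.42 to 1.46 that lay apart. Group means ran from 1.42 to 1.79 in MPH and BECs. Col1a1 over Col1a2 was 2.24 ± 0.0458 in BECs BDL and 2.08 ± 0.159 in BECs Sham, 1.89 ± 0.318 in MPH BDL and 1.07 ± 0.303 in MPH Sham, and 1.17 ± 0.425 in Kupffer BDL and 1.10 ± 0.227 in Kupffer Sham. The MPH ranges lay apart, at 1.53 to 2.14 in BDL and 0.750 to 1.35 in Sham. Type I collagen holds more of the Col1a1 chain than of the Col1a2 chain, but the size of this ratio depended on the length assigned to each gene. With the longest protein-coding transcript in place of all exons, it was 1.07 ± 0.0218 in BECs BDL and 0.990 ± 0.0758 in BECs Sham, since the exons of Col1a2 cover 12426 bases and its longest transcript 5348. Ratios between groups are unaffected by that choice. Col6a1 over Col6a2 averaged 2.93 ± 0.369 in MPH BDL, the highest of the 6 groups, and 1.75 ± 0.220 there with the longest transcripts.

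Markers of other cells also differed between BDL and Sham, in both directions. The counts of called markers below stand beside the shares of all genes called. These were 1.47% higher and 2.4% lower in Kupffer-like cells, 2.96% higher and 4.7% lower in BECs, and 1.57% in either direction in MPH. In Kupffer-like cells 4 of 6 mesothelial markers (Upk3b, Upk1b, Wt1 and Lrrn4) rose, and the 6 summed to 37.4 to 81.5 FPKM in BDL and 6.00 to 15.1 in Sham. Wt1 reached 1 FPKM in BDL alone, and so passed the filter through that group only. Acta2, the smooth muscle actin of myofibroblasts, rose to 5.51 ± 1.41 FPKM in BDL, against 0.869 ± 0.406 in Sham (adjusted p = 0.0272), alone among the 2 tested of 6 smooth muscle markers, which summed to 6.57 to 11.5 FPKM in BDL and 3.67 to 4.85 in Sham. Of 12 stellate markers 0 rose and Nes fell, and their sum was 15.2 to 74.6 FPKM in Kupffer BDL and 43.6 to 63.1 in Kupffer Sham. Of 9 portal fibroblast markers 0 rose or fell by limma, 2 of the 6 tested had an unadjusted p under 0.05 (Pdgfra, log2 fold change 1.56, and Thy1, -1.09), with sums of 23.9 to 44.5 FPKM in BDL and 27.3 to 53.9 in Sham. Of 10 endothelial markers 4 fell, with sums of 476 to 1243 FPKM in BDL and 1592 to 1933 in Sham. Neutrophil markers summed to 710 to 2054 FPKM in Kupffer BDL and 262 to 280 in Kupffer Sham, and S100a8 and Cxcr2 rose. Hepatocyte markers summed to 989 to 3096 FPKM in Kupffer BDL and 418 to 902 in Kupffer Sham. The 5 monocyte markers summed to 373 to 445 FPKM in Kupffer BDL and 98.3 to 321 in Kupffer Sham, and Ccr2 and F13a1 rose. No marker of these lists was at 0 in a whole group, and their part in the rise of Col6a1, Col6a2 and Col5a1 was not tested.

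In MPH, Msln rose among 6 mesothelial markers, whose sum was 31.9 to 36.5 FPKM in BDL and 4.93 to 12.6 in Sham, and Krt7 among 8 biliary markers, whose sum was 71.0 to 75.0 FPKM in BDL and 26.1 to 52.4 in Sham. Portal fibroblast markers in MPH summed to 14.7 to 16.8 FPKM in BDL and 7.85 to 9.95 in Sham, with 0 of the 5 tested called. Monocyte markers in MPH summed to 69.9 to 161 FPKM in BDL and 9.61 to 17.5 in Sham, and F13a1 and Chil3 rose. In MPH, Krt7 and F13a1 reached 1 FPKM in BDL alone, and so passed the filter through that group only. In BECs 7 of 10 endothelial markers fell, with sums of 81.9 to 120 FPKM in BDL and 178 to 243 in Sham, as did the stellate markers Colec11 and Vipr1, the mesenchymal marker Clec3b and the smooth muscle marker Cnn1. In BECs all 5 tested of 6 neutrophil markers rose, to sums of 278 to 382 FPKM in BDL against 30.7 to 92.1 in Sham. Of these, Cxcr2 reached 1 FPKM in BDL alone, so the filter fixed its order. Monocyte markers in BECs summed to 53.4 to 207 FPKM in BDL and 8.49 to 19.9 in Sham, and F13a1 and Itgam rose. Hepatocyte markers in BECs summed to 142 to 562 FPKM in BDL and 1376 to 3412 in Sham, and Ttr fell. Of 6 mesothelial markers Gpm6a also fell in BECs and 0 rose. Their sum was 25.9 to 153 FPKM in BDL and 33.1 to 58.4 in Sham, with overlap. Of the 5 tested, 1 had a positive log2 fold change, and the median was -0.55. Msln stood at 16.0 to 140 FPKM in BECs BDL and 6.48 to 20.1 in BECs Sham. Of 8 biliary markers Cftr rose and 1 fell. The part of these cells in the falls of Col14a1 and Col23a1 or in the rises of Col5a2 and Col7a1 was not tested.

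**Figure D5:**
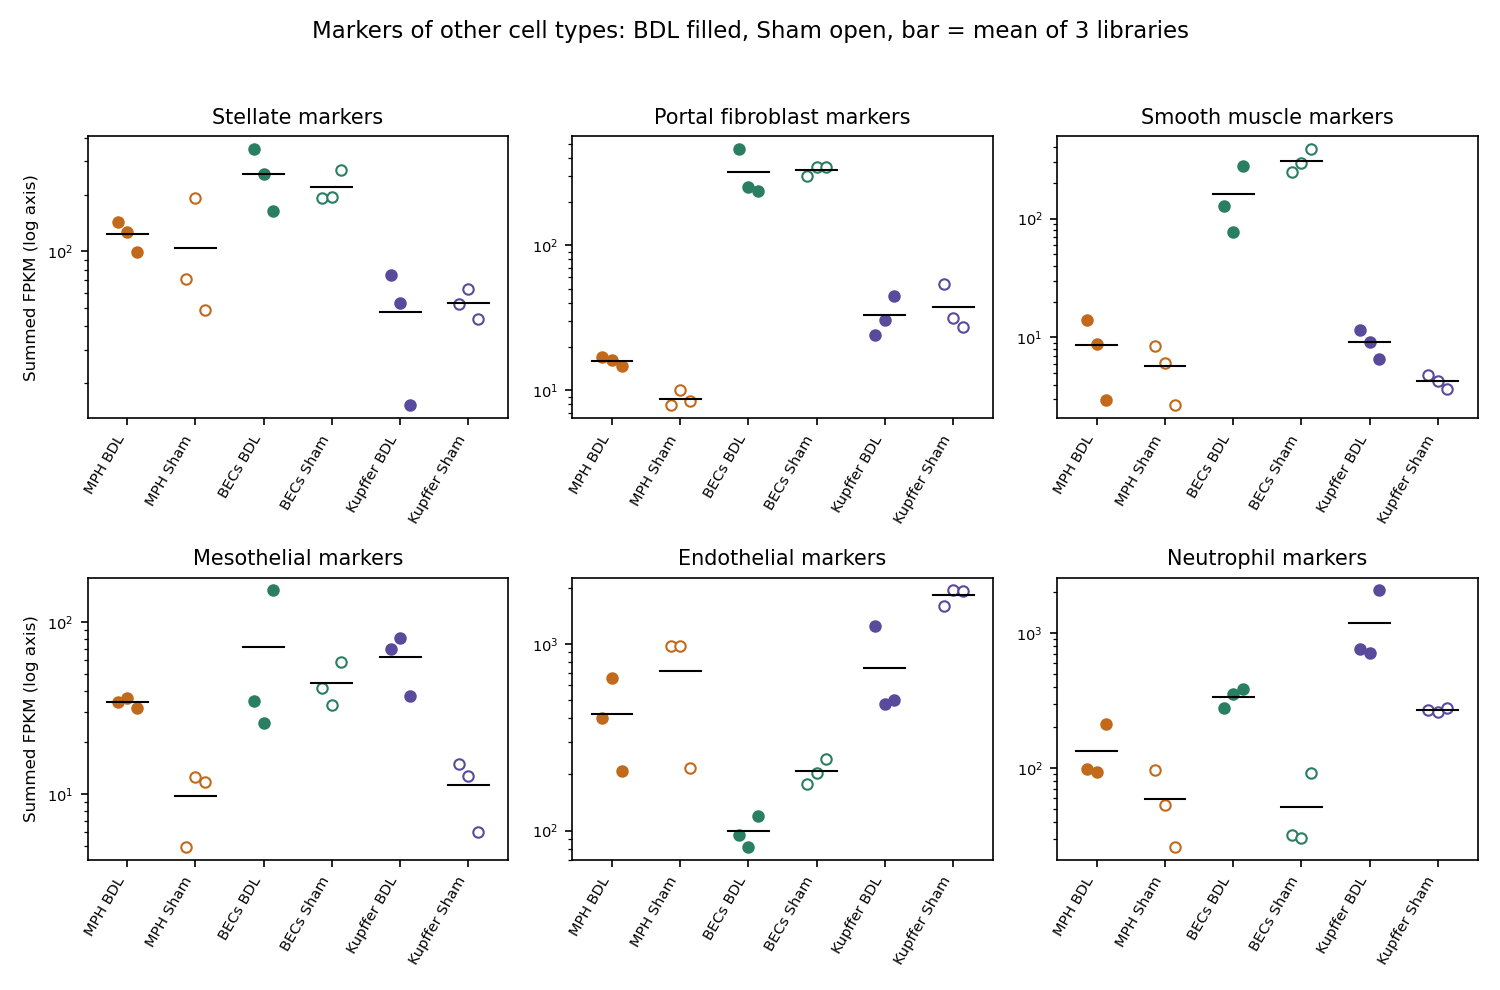
Summed FPKM of marker lists of 6 other cell types in each library on log axes, BDL as filled and Sham as open points, with the mean of 3 libraries as a bar. Mesothelial sums in Kupffer-like cells lay at 37.4 to 81.5 FPKM in BDL and 6.00 to 15.1 in Sham, and portal fibroblast and smooth muscle sums were highest in BECs.

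Collagen chains are modified, folded and trimmed by dedicated enzymes, and 27 of 28 listed genes of this kind were in the table. Over all genes 2.96% rose and 4.7% fell in BECs, 1.47% rose and 2.4% fell in Kupffer-like cells, and 1.57% changed in MPH. In BECs 2 of 25 tested rose, Plod2, the lysyl hydroxylase of the chain ends, at 10.8 ± 2.26 FPKM in BDL and 5.43 ± 0.983 in Sham (log2 fold change 0.88, adjusted p = 0.0402), and Colgalt1, a collagen galactosyltransferase (0.72, adjusted p = 0.0435). In BECs 2 fell, the prolyl hydroxylase P3h2 (-0.70) and Pcolce2, an enhancer of propeptide cleavage (-0.74). In Kupffer-like cells 1 of 23 rose, the folding factor Fkbp10, at 3.77 ± 1.15 FPKM in BDL and 0.986 ± 0.358 in Sham (1.25, adjusted p = 0.0489). In MPH 1 of 22 rose, the propeptide-cleaving protease Adamts2, at 5.55 ± 0.970 FPKM in BDL and 1.26 ± 0.741 in Sham (1.57, adjusted p = 0.0466). The median of the list was 0.11 in Kupffer-like cells, 0.04 in BECs and 0.21 in MPH.

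Receptors and partners of collagen changed in at most 2 members per preparation and list, to be read beside the shares of all genes just given. Of 11 collagen receptors Itga2, the alpha 2 integrin subunit, rose in BECs to 8.53 ± 2.18 FPKM in BDL, against 1.21 ± 0.449 in Sham (2.10), and Itga11 fell (-0.69). Ddr1, a collagen-activated tyrosine kinase, rose in MPH to 6.84 ± 2.95 FPKM in BDL, against 1.17 ± 0.442 in Sham (1.81), and Itga1 fell in Kupffer-like cells to 2.71 ± 0.721 FPKM in BDL, against 6.34 ± 0.505 in Sham. Of 14 fibril partners Fbn1, the fibrillin of microfibrils, rose in BECs (1.00) and Fmod, a fibril-binding proteoglycan, fell to 14.4 ± 3.37 FPKM in BDL, against 37.6 ± 8.87 in Sham (-1.32). Tnc, the matrix protein tenascin C, rose in MPH (1.22), where it reached 1 FPKM in BDL alone and so passed the filter through that group only. In Kupffer-like cells 0 of 11 tested partners passed by limma, with 3 at an unadjusted p under 0.05. The smallest p there belonged to Nid1, a basement membrane linker (-0.81, adjusted p = 0.0753), and Hspg2, the proteoglycan perlecan (-1.69, adjusted p = 0.172). The median log2 fold change of the partners was -0.33 in Kupffer-like cells, 0.27 in BECs and 1.02 in MPH, and that of the receptors 0.10, 0.03 and 0.37.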

How the data were processed

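Gene expression was measured by RNA-seq of polyadenylated RNA in 18 libraries. The deposited table gives FPKM per gene, made by the authors. The submitters' processing notes name CASAVA 1.8, fastp, HISAT2 2.0.5, featureCounts 1.5.0-p3, DESeq2 1.20.0 and the builds GRCm38 and mm10, without their roles. RNA was extracted with TRIzol and libraries were made with a VAHTS Universal V6 kit, per the labels' protocols.

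Each library's depth was recovered from FPKM and GENCODE M21 exon lengths, and 97.4% to 98.4% of the values below 200 reads came out within 0.02 of a whole read. The size by which FPKM had been scaled was 0.517 to 0.741 times the recovered reads in MPH and 0.934 to 1.22 times in the other libraries, so levels set across preparations depend on it.

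FPKM were tested as log2(FPKM + 1) with limma 3.58.1 in R 4.3.3 (trend and robust, 2-sided), on genes with at least 1 FPKM in at least 3 libraries of the fit. P-values were adjusted by Benjamini-Hochberg over all genes tested, and a gene was called under 0.05. BDL was tested against Sham within each preparation, responses by interaction terms over 12 libraries, and preparations within the 9 Sham or the 9 BDL libraries. Comparisons that share libraries are set side by side only. The fit was tested on simulated data.

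Chains were named with values where called in BDL against Sham or in a response, where a group mean reached 5 FPKM, or where they belong to types I, III, V, XV or XVIII or are Col4a1, Col4a2, Col6a1, Col6a2 or Col6a3. Of the other lists the called genes were named, at most 6 per comparison, or the 2 with the smallest p where none was called. Members and lists were chosen with earlier results of these data known. Promoters came from RefSeq.

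MPH and Kupffer libraries shared 3 title numbers, and the correlation of their deviations from group means was 0.213, 0.324 and 0.300 over 15594 genes. Libraries with unlike numbers were not correlated, so these values cannot show that the numbers pair libraries. The numbers served as a block in an alternative only. The alternatives were other pseudocounts, level filters, scalings, quantile normalization, all 18 libraries in 1 fit, plain eBayes, a replicate block and leaving out each library.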

Additional observations from a re-analysis of the deposited data

Results flagged for a closer look

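Col23a1 passed a test of the difference between preparations in the response to ligation, on the log2(FPKM + 1) scale. The BDL minus Sham difference in BECs was below that in MPH by an interaction term of -1.1327 on the log2(FPKM + 1) scale and below that in Kupffer-like cells by -1.0728, with limma adjusted p of 0.0208 and 0.0215. In BECs each BDL library was below each Sham library, at 0.495 to 0.602 FPKM in BDL and 1.81 to 2.36 in Sham. In the MPH and Kupffer libraries the chain never passed 0.410 FPKM, a level from which it cannot fall by as much on this scale, and it entered the fits through BECs Sham alone. With pseudocounts of 0.1 and 0.01 neither difference passed, with adjusted p of 0.0779 and 0.137 against MPH and 0.0529 and 0.0783 against Kupffer-like cells. In BECs 7 of 10 endothelial, 2 of 12 stellate, 1 of 6 smooth muscle and 1 of 9 portal fibroblast markers also fell. So did 1 of 6 mesothelial, 1 of 8 hepatocyte and 1 of 8 biliary markers, while 4.7% of all genes fell. The part of these markers in the result was not tested.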

How the results depend on the processing

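The counts of called chains in BDL against Sham were sensitive to the processing, and no called value changed sign. Of 137 alternative values for 9 called log2 fold changes, 75 kept the call, 62 lost it and 0 reversed. For Kupffer-like cells the main count of 3 became 0 with a pseudocount of 0.01 (all genes 2.24%) or no filter on level (0%), 5 with quantile normalization (5.04%) and 6 with all 18 libraries in 1 fit (7.16%), and ranged from 0 to 5 when single libraries were left out (0% to 18.4%). For BECs the count of 4 became 0 with no filter (0.243%) and 2 with a filter of at least 5 FPKM (9.8%), and ranged from 0 to 3 without single libraries (0.652% to 7.84%). For MPH the count of 0 became 1 with quantile normalization (1.48%) or plain eBayes (1.91%) and 3 with all 18 libraries (Col1a1, Col5a2 and Col6a1; all genes 12.4%), and ranged from 0 to 2 (0.0667% to 0.646%). The sex of the library as a covariate, chosen after seeing the data, gave 1 in BECs and 0 in Kupffer-like cells. The transcript length used for chain ratios was also chosen after seeing the data. For responses of BECs minus MPH the count of 1 became 0 with pseudocounts of 0.1 or 0.01 or a filter of 5 FPKM and 3 with all 18 libraries, with 0 to 1 without single libraries (all genes 0.347% to 2.31%). For BECs minus Kupffer the count of 1 became 0 under those pseudocounts, that filter or no filter, and 2 with either rescaling or all 18 libraries, with 0 to 2 without single libraries (0.258% to 12.1%). Kupffer minus MPH stayed at 0 in every alternative run.

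Between preparations, a filter of 5 FPKM gave 16 in place of 25 for BECs against Kupffer in Sham and 15 in place of 24 for BECs against MPH in BDL. For Kupffer against MPH in Sham, 7 became 16 with a common sum and 12 with recovered reads. In BDL, 1 became 5, 3 and, with all 18 libraries, 2. The shares of all genes under these filters and scalings are not given here. Such settings change which genes are tested or shift the median of all genes, so these counts stand without a background. Without a BECs library fewer chains meet the filter. Without single libraries, BECs against MPH ranged from 15 to 26 in Sham (46.8% to 58.0% of all genes) and 17 to 24 in BDL (32.3% to 50.6%). BECs against Kupffer ranged from 16 to 25 in Sham (32.0% to 50.2%) and 14 to 25 in BDL (17.4% to 36.5%). Kupffer against MPH ranged from 4 to 6 in Sham (46.2% to 60.6%) and 1 to 3 in BDL (18.6% to 31.3%). With the replicate block the count was 7 for Kupffer against MPH in Sham and 0 for the response of Kupffer minus MPH, so the block changed no count. It was not run for Kupffer against MPH in BDL, where 1 number is shared. Of 120 group levels, 51 moved by over 1 SD under another scaling. The cause of these differences was not tested. With 3 libraries per group, a missed call does not show that a chain was unchanged.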
